A study of Mus musculus with 16 samples.

Results

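The genes described here encode the subunits of the proteasome, measured in mouse liver. They were chosen by name alone: rows of the count tables whose gene name begins with Psma, Psmb, Psmc or Psmd and a number, with processed copies (names holding -ps) left out. The rule took 40 of 24539 genes, and no measured value entered it. No row with such a -ps name was in the tables, so how reads from processed copies were assigned is not known for any of these genes. Of the 40, 31 are standard subunits, 3 replace catalytic subunits in the immunoproteasome, 3 (Psmd5, Psmd9, Psmd10) are chaperones that help to build the base, Psma8 is the testis variant of an alpha subunit and Psmb11 the thymus variant of a catalytic one. The remaining gene, Psmc3ip, matched by name only and is no proteasome subunit: it encodes a partner of recombinases in meiosis.

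All groups were livers of male C57BL/6 mice that started a diet at 8 weeks of age, ate it for 8 weeks and were 16 weeks old at sampling. The HF group ate a high-fat diet and the HB group the same kind of diet with betaine, a methyl donor; both groups were thus on high-fat food, and no group on ordinary chow was analysed here. Each diet had 2 libraries of total polyadenylated mRNA, 2 of mRNA pelleted with ribosomes and their nascent chains (RNC mRNA) and 2 of RNA enriched by an antibody to N6-methyladenosine (m6A), a base modification of mRNA. Per the labels, mRNA and RNC samples were pools from independent experiments, so no p-value here measures the spread between mice. In the mRNA fit the p-values measure the spread between pools. The main fit with RNC libraries takes its spread from the mRNA and HF RNC pairs. It holds none between HB RNC pools, since that pair was summed.

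The proteasome breaks down proteins that carry a ubiquitin tag. Its core is a barrel of 4 stacked rings: rings of 7 alpha subunits (Psma1 to Psma7) form the gate, and rings of 7 beta subunits (Psmb1 to Psmb7) hold the cutting sites, which are in Psmb5, Psmb6 and Psmb7. The regulatory particle has a base, with 6 ATPases (Psmc1 to Psmc6) that unfold the substrate and with Psmd1, Psmd2 and Psmd4, and a lid of Psmd subunits, among them Psmd14, the enzyme that removes ubiquitin. In cells exposed to interferon, Psmb8, Psmb9 and Psmb10 take the places of Psmb5, Psmb6 and Psmb7.

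The mRNA libraries held 11437462 to 22492813 reads and the RNC libraries 5778439 to 8659310. Both HB mRNA libraries (22492813 and 18011999 reads) were deeper than both HF ones (11437462 and 11570775), so depth and diet cannot be told apart there. The HB RNC libraries stood apart as a pair. For the proteasome genes, chi-square over degrees of freedom between replicates was 1.21 there. It was 88.7 for HF RNC, 7.57 for HF mRNA and 60.6 for HB mRNA. Over all genes HB RNC gave 1.40, little above sampling noise, and these 2 libraries were summed and counted as 1 sample. In the HF RNC pair, 13 of 37 proteasome genes differed by more than 2-fold between replicates. The tissue labels matched the hepatocyte markers, which were detected in every library. Of 5 testis and thymus markers, Tnp1, Foxn1 and Aire had 0 reads in each of the 8 mRNA and RNC libraries. Ddx4 reached 0.473 CPM in HF mRNA and Prm1 0.190 CPM in HB mRNA, and both had 0 reads in RNC.

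Proteasome mRNAs were higher in HB livers than in HF livers. Of the 37 genes with enough reads to test, 20 rose and none fell (edgeR quasi-likelihood test on the 4 mRNA libraries, Benjamini-Hochberg adjusted p under 0.05). Across all 12817 genes tested, 11.3% rose and 10.1% fell, which together made 21.4%. The median log2 change of the 37 was 0.87 against 0.01 over all genes, and 36 of 37 lay above 0 against 50.5% of all genes. Both HB libraries were above both HF libraries for 31 of 37, against 32.8% of all genes, and both were below for 0, against 32.1%. Proteasome reads made up 0.251% and 0.265% of all mRNA reads in the HF libraries and 0.354% and 0.353% in the HB libraries. In bulk liver, a change in the cells that carry an mRNA and a change in mRNA per cell cannot be told apart.

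**Figure D1:**
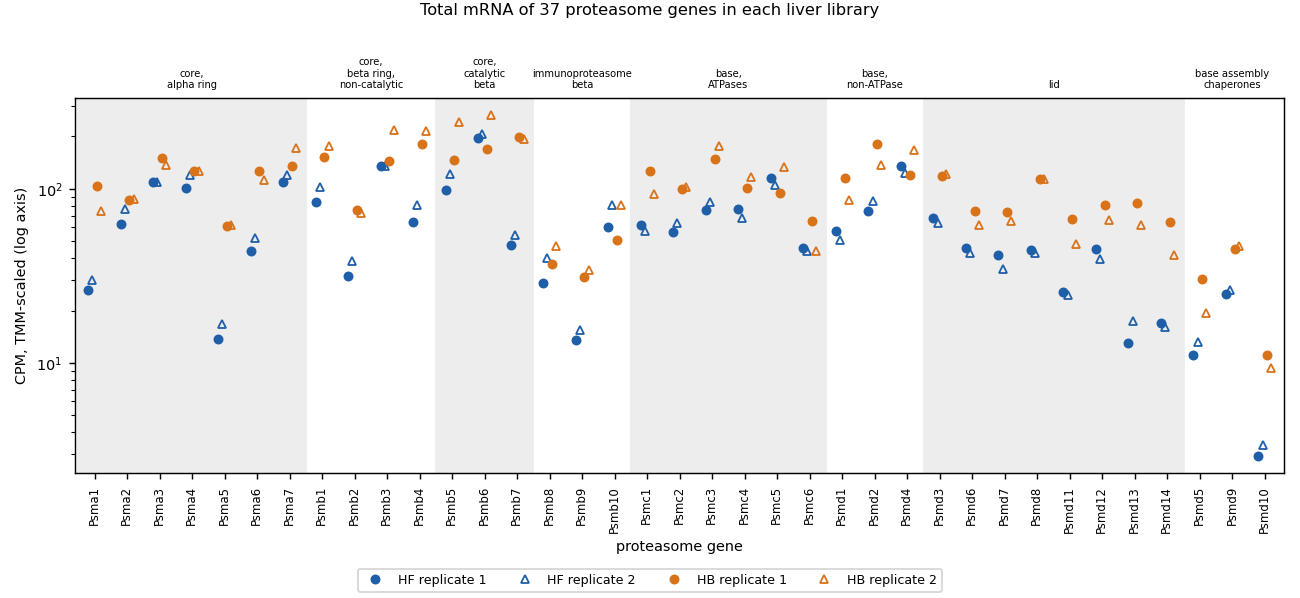
Level of total mRNA (CPM, read counts scaled to a common library size with TMM factors, log axis) of the 37 tested proteasome genes in each of the 4 liver libraries, grouped by role along the x axis. HB points (orange) lie above both HF points (blue) for 31 genes, with the widest gaps at Psma5, Psmb7 and Psmd13.

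In the lid 6 of 8 genes rose, with a median log2 change of 1.04. Psmd13, a scaffold subunit of the lid (chromosome 7, 140882394 to 140898642, GRCm38.p6), held 12.9 and 17.4 CPM in the HF libraries and 82.6 and 62.4 CPM in the HB libraries. The groups were far apart, and its change of 2.26 (SE 0.31, adjusted p = 0.00403, 4.78-fold) was the largest among the proteasome genes tested. Psmd14, the deubiquitinating enzyme of the lid (chromosome 2, 61711694 to 61800376), held 16.9 and 16.0 CPM in HF and 64.8 and 41.8 CPM in HB. Its change was 1.70 (SE 0.31, adjusted p = 0.00722). Psmd8 stood at 44.3 and 43.0 CPM in HF and at 113.5 and 113.6 CPM in HB, with almost no spread within either diet, and rose by 1.38 (adjusted p = 0.00878). Psmd11 held 25.5 and 24.4 CPM in HF and 66.8 and 48.2 CPM in HB, a rise of 1.20 (adjusted p = 0.0161). Psmd3 (0.87) and Psmd7 (0.87), which partners Psmd14, also rose, while Psmd12 (0.80, adjusted p = 0.0584) and Psmd6 (0.63, adjusted p = 0.115) did not pass the threshold.

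In the alpha ring 3 of 7 genes rose. Psma5 (chromosome 3, 108256926 to 108279952) went from 13.8 and 16.6 CPM in HF to 61.5 and 62.3 CPM in HB, a log2 change of 2.02 (SE 0.28, adjusted p = 0.00403). Psma1 (chromosome 7, 114264550 to 114276116) went from 26.1 and 30.0 CPM to 103.8 and 75.03 CPM, a change of 1.67 (SE 0.29, adjusted p = 0.00684). Psma6 held 43.9 and 52.5 CPM in HF and 126.6 and 111.7 CPM in HB, a rise of 1.31 (adjusted p = 0.0115). The neighbours of these subunits in the same ring were nearer to level. Psma2, Psma3, Psma4 and Psma7 had log2 changes between 0.20 and 0.41, and none passed the threshold, although both HB values lay above both HF values in each. The median change of the ring was 0.41.

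Of the 4 beta subunits without a cutting site, Psmb2 and Psmb4 rose. Psmb4 (chromosome 3, 94884324 to 94886958) held 64.9 and 80.4 CPM in HF and 181.3 and 215.9 CPM in HB, a change of 1.45 (SE 0.29, adjusted p = 0.0093). Psmb2 held 31.5 and 38.7 CPM in HF and 76.0 and 73.0 CPM in HB, a change of 1.09 (adjusted p = 0.0199). Psmb1 (0.81, adjusted p = 0.0627) and Psmb3 (0.43, adjusted p = 0.328) did not pass.

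The 3 catalytic subunits moved unequally. Psmb7, which has the trypsin-like site (chromosome 2, 38588046 to 38643952), held 47.3 and 54.2 CPM in HF and 198.2 and 193.1 CPM in HB. Its change of 1.95 (SE 0.29, adjusted p = 0.00446) came with little spread inside either diet. Psmb5, which has the chymotrypsin-like site, held 98.5 and 122.5 CPM in HF and 147.1 and 242.5 CPM in HB (0.82, adjusted p = 0.09). Its groups did not overlap, but the HB libraries were far from each other. Psmb6, with the caspase-like site, held 197.0 and 207.9 CPM in HF and 168.7 and 266.2 CPM in HB. The HF values lay between the HB values, and the change was 0.10 (adjusted p = 0.838).

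Among the immunoproteasome subunits only Psmb9 passed in mRNA. It held 13.5 and 15.4 CPM in HF and 31.0 and 34.1 CPM in HB, a log2 change of 1.17 (SE 0.29, adjusted p = 0.0179). Psmb8 held 29.0 and 40.0 CPM in HF and 37.2 and 46.7 CPM in HB (0.28, adjusted p = 0.509), and its groups overlapped. Psmb10 held 60.3 and 80.9 CPM in HF and 50.8 and 81.2 CPM in HB (-0.10, adjusted p = 0.849), and was the single tested gene below 0. Of 12 immune cell markers 4 rose (H2-Ab1, Lyz2, Cd5l and Marco) and 1 fell (Ptprc, the pan-leukocyte CD45). Their summed level was 294 and 338 CPM in HF and 450 and 443 CPM in HB, while the lymphocyte markers Cd3e and Cd79a stayed between 0.237 and 1.26 CPM. By log2 change 7 of the 12 lay above 0. Clec4f, the highest of the 12 in each mRNA library, held 160 and 143 CPM in HF and 126 and 137 CPM in HB. The summed level of 8 hepatocyte markers was 69933 and 76054 CPM in HF and 111980 and 104912 CPM in HB, and 2 of the 8 rose. Alb alone held 40713 and 47588 CPM in HF and 70555 and 57195 CPM in HB, and Hnf4a changed by -0.32. The part of either cell type in the proteasome changes was not tested.

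Immunoproteasome and constitutive subunits were also compared as a ratio of RPKM (reads per kilobase of transcript, scaled to the library's reads) within each library. Psmb10 over Psmb7 was 0.972 and 1.14 in HF mRNA and 0.196 and 0.321 in HB mRNA, so the balance of this pair lay on the side of Psmb7 in both HB libraries. Psmb9 over Psmb6 went the other way, from 0.088 and 0.0951 in HF to 0.236 and 0.165 in HB. Psmb8 over Psmb5 was 0.209 and 0.233 in HF and 0.18 and 0.137 in HB. In RNC mRNA, Psmb8 over Psmb5 was 0.162 and 0.216 in HF and 0.346 and 0.340 in HB, above both HF values. There Psmb9 over Psmb6 was 0.0529 and 0.145 in HF against 0.0507 and 0.0373 in HB. In each of the 3 pairs the mRNA ratios of the diets did not overlap, with Psmb9 over Psmb6 higher in HB and the other pairs lower. Such separation is common with 2 libraries per diet. Among single genes, both HB libraries lay above both HF ones for 32.8% and below for 32.1% of all genes tested. No such share was counted for ratios. With 2 libraries against 2, an exact permutation test cannot give a two-sided p below 0.333, and none is given.

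**Figure D2:**
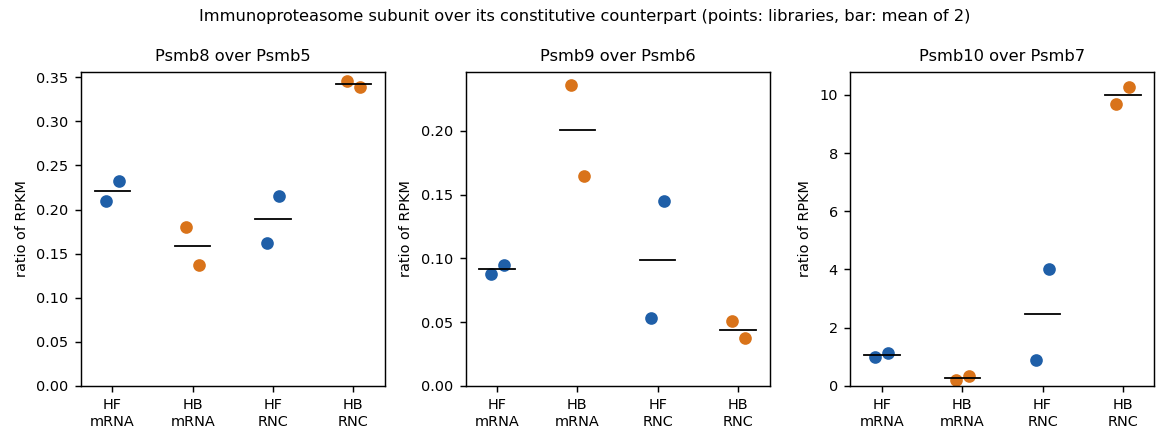
RPKM of each immunoproteasome subunit divided by that of the constitutive subunit it replaces, per library (points) with the mean of 2 libraries (bars), for total mRNA and RNC mRNA of both diets. Psmb10 over Psmb7 is lower in HB than in HF in mRNA (0.196 and 0.321 against 0.972 and 1.14) and higher in HB than in HF in RNC (9.70 and 10.3 against 0.899 and 4.00).

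In the base 4 of 9 subunits rose. They were the ATPases Psmc1 (0.88, adjusted p = 0.0479) and Psmc3 (1.04, adjusted p = 0.0258), and Psmd1 (0.90, adjusted p = 0.0441) and Psmd2 (1.00, adjusted p = 0.0324), the large scaffold subunits. Psmc2 (0.76, adjusted p = 0.0658) and Psmc4 (0.59, adjusted p = 0.142) did not pass. Psmc5 (0.04), Psmc6 (0.29) and the ubiquitin receptor Psmd4 (0.15) overlapped between diets. All 3 base assembly chaperones rose. Psmd10, also known as gankyrin, was at 2.92 and 3.37 CPM in HF and 11.1 and 9.39 CPM in HB (1.70, adjusted p = 0.0114). Psmd5 rose by 1.03 (adjusted p = 0.0445) and Psmd9 by 0.84 (adjusted p = 0.0442). The span of Psmd10 overlaps Atg4a and that of Psmd1 overlaps Htr2b, and whether counting used strand is not given in the sources used here.

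**Figure D3:**
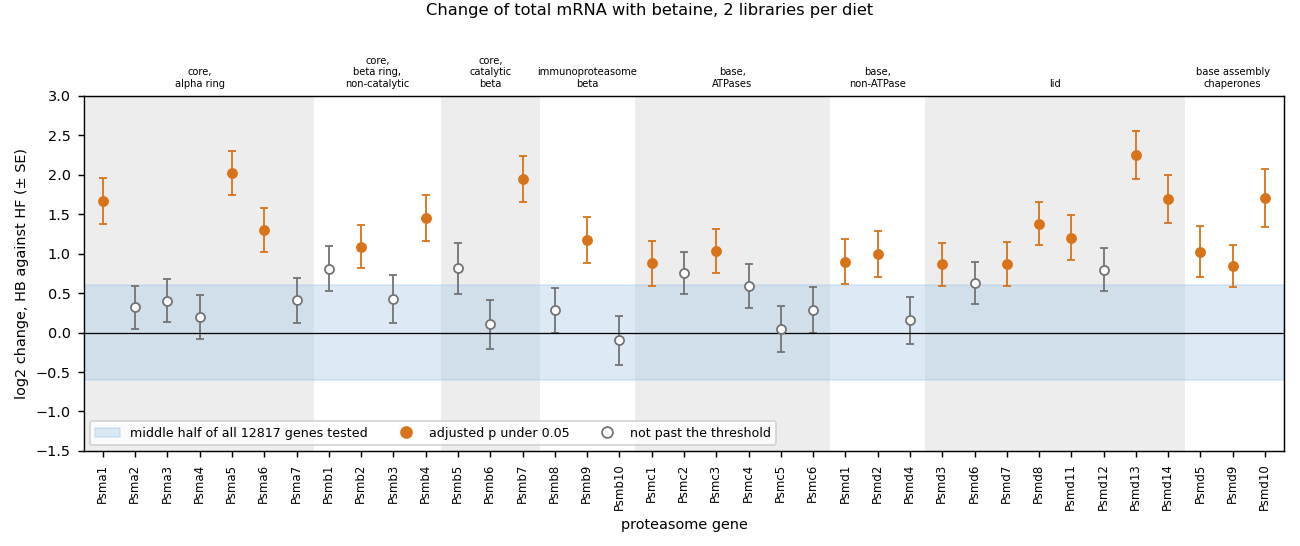
Log2 change of total mRNA in HB against HF (points, bars show the standard error) for the 37 tested proteasome genes, 2 libraries per diet. Filled points mark the 20 genes past the adjusted threshold, and the blue band spans the interquartile range of the changes of all 12817 genes. Psmb10 is the single point below 0.

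Not every call was equally firm. In the edgeR fit 5 genes, Psma1, Psma5, Psmb7, Psmd13 and Psmd14, were called with any one of the 4 mRNA libraries left out. Leaving out HF replicate 1 brought the 20 calls to 5, HF replicate 2 to 7, HB replicate 1 to 10 and HB replicate 2 to 21. Scaling by total counts gave 11 calls, where 24.2% of all genes passed, and moved the median of all genes to -0.28. With the trend of each library with transcript length removed, 15 genes were called, where 19.2% of all genes passed. The median of the 37 was then 0.64, and 30 lay above 0. The uncalled genes Psma4, Psmb6, Psmc5 and Psmd4 lay below 0 with total counts, with the length trend removed and with limma on RPKM. In a fit that also held the RNC libraries, whose spread was larger, no proteasome gene passed (17 had an unadjusted p under 0.05) and 0 of all genes did.

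Subunits of one complex differed widely in mRNA level, and in total mRNA the range over the standard subunits was narrower in HB. Per length, Psmb3 (211 RPKM as the mean of the mRNA libraries) and Psmb6 (200 RPKM) were the highest and Psmd10 (4.36 RPKM) and Psmd5 (8.73 RPKM) the lowest of the tested genes. Among the 31 standard subunits the highest RPKM was 23.0 and 19.3 times the lowest in the HF libraries, and 5.77 and 11.3 times in the HB libraries. The SD of log2(RPKM + 0.1) across these subunits was 1.15 and 1.18 in HF and 0.756 and 1.05 in HB. In the alpha ring, whose members are built in equal number, the SD was 1.18 and 1.17 in HF and 0.558 and 0.672 in HB. Psma5 was the lowest and Psma7 the highest there in each mRNA library. Of the roles, only the base ATPases were not narrower in both HB libraries (0.589 and 0.535 in HF, 0.417 and 0.717 in HB). In RNC the SD of the standard subunits was 2.29 and 1.62 in HF and 2.27 and 2.22 in HB. The spread over all genes was not compared.

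Genes that work with the proteasome were counted in lists of their own. Of 5 core assembly factors Pomp, the maturation factor of the core, rose (HF 68.5 and 77.9 CPM, HB 145.4 and 166.9 CPM, log2 change 1.09). None of the 5 activators and inhibitors (Psme1 to Psme4 and Psmf1) passed. Of 7 associated proteins Txnl1 (0.84) and the ubiquitin ligase Ube3c (1.05) rose. Among 12 genes that supply ubiquitin or shuttle substrates 4 rose and 1 fell: Ubqln2 (1.66) and Vcp (1.23), the segregase that extracts proteins for degradation, were the highest, and Ubqln4 fell by 1.04. A list named transcription control held Nfe2l1, Nfe2l2, Ddi2, Ngly1, Sel1l and Syvn1, not all of which are transcription factors. Of these 6 genes, Nfe2l2 (NRF2) fell by 1.16 and Syvn1, a ubiquitin ligase of the endoplasmic reticulum, fell by 1.83 in mRNA. In RNC none of the 6 passed. There Nfe2l2 held 35.7 and 59.4 CPM in HF and 108.3 and 101.6 CPM in HB, a log2 change of 1.13. Nfe2l1 (NRF1) is the factor known to induce proteasome genes when proteasome activity is short. It held 152.0 and 138.7 CPM in HF mRNA and 141.9 and 145.7 CPM in HB mRNA (-0.02). The median log2 change was 0.62 for the activators and inhibitor, 0.69 for core assembly, 0.53 for associated proteins, 0.76 for ubiquitin supply and -0.59 for transcription control, against 0.01 over all genes.

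Promoters were searched because so many of these genes were higher together. RefSeq (GRCm38.p6) gave 35 promoter entries for 33 of the 40 genes, and 11 short motifs were searched on both strands in the 250 bases before each start. CGGAAG, the core of sites of ETS factors, was in 18 of 35 (51.4%), against 13.6% of all 32851 promoters of the same length. These 32851, used for every motif here, were not limited to genes tested in liver. It stood in 8 of 15 genes that rose and in 7 of 16 tested genes that did not pass. Among these 7 were the lid genes Psmd6 and Psmd12. The 18 promoters include those of Psmb11 and Psmc3ip, which were not tested. GGGCGG, the core of SP1 sites, was in 51.4% against 32.7%, and CCAAT in 40.0% against 33.8%. TGACNNNGC, the core to which NRF1 and NRF2 can bind, was in 5 of 35 (14.3%, against 10.2%), and of these 5 genes 1, Psmd9, rose. The other motifs were TATAAA (4 promoters, 11.4% against 12.4%), the interferon-stimulated response element (3, 8.57% against 2.98%), CACGTG (3, 8.57% against 6.02%), the ZNF143 site (2, 5.71% against 1.67%), TTCNNNGAA (1, 2.86% against 7.02%), TGAGTCA (1, 2.86% against 4.46%) and TGACTCAGC (0, against 0.39%). TGACTCAGC holds TGACTCA, the reverse complement of TGAGTCA, and is a form of TGACNNNGC. The windows below were chosen after these counts were known. They show CGGAAG, or CTTCCG on the other strand, in capitals in the 4 lid genes that rose and had an entry, and TGACNNNGC in Psmb5 and Psmd9. Each runs 5′ to 3′ on the gene's strand.
Psmd13, chr7:140882276-140882335, plus strand: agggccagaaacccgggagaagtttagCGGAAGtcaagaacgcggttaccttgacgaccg
Psmd14, chr2:61711553-61711612, plus strand: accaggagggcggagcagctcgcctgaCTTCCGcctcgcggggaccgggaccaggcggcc
Psmd8, chr7:29180674-29180733, minus strand: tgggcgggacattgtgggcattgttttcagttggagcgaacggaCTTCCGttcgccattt
Psmd11, chr11:80428555-80428614, plus strand: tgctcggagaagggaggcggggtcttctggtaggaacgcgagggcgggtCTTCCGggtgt
Psmb5, chr14:54618008-54618067, minus strand: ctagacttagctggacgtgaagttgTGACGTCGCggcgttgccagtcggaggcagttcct
Psmd9, chr5:123228130-123228189, plus strand: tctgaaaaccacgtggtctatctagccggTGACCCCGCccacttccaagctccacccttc
The match begins 91 bases before the annotated start in Psmd13, 114 in Psmd14, 16 in Psmd8, 11 in Psmd11, 47 in Psmb5 and 31 in Psmd9. A match describes the letters only.

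In RNC mRNA 2 proteasome genes rose and 1 fell, of 37 tested (edgeR on 7 libraries), where 11.5% of all 12634 genes passed (7.61% higher, 3.94% lower). The share of the proteasome genes called was no larger than that of all genes. This count and the 20 mRNA calls come from fits with unlike spread and cannot be set against each other: in the 7-library fit the mRNA contrast called 0 proteasome genes. The median log2 change was 0.25, against 0.00 over all genes, and 23 of 37 lay above 0 against 43.8%. At an unadjusted p under 0.05 there were 12, against 19.6% of all genes. The summed HB value lay above both HF values for 15 of 37 genes, against 32.3% of all genes, and below both for 7, against 20.5%. In the 7-library fit, tested genes with no RNC read, such as Ptprc, have a log2 change of 0. They enter the median and the shares of all genes. Fitted to the RNC libraries alone, the median was 0.25 for the proteasome genes and 0.17 over all genes. Proteasome reads were 0.461% and 0.413% of HF RNC reads and 0.527% and 0.526% of HB RNC reads.

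**Figure D4:**
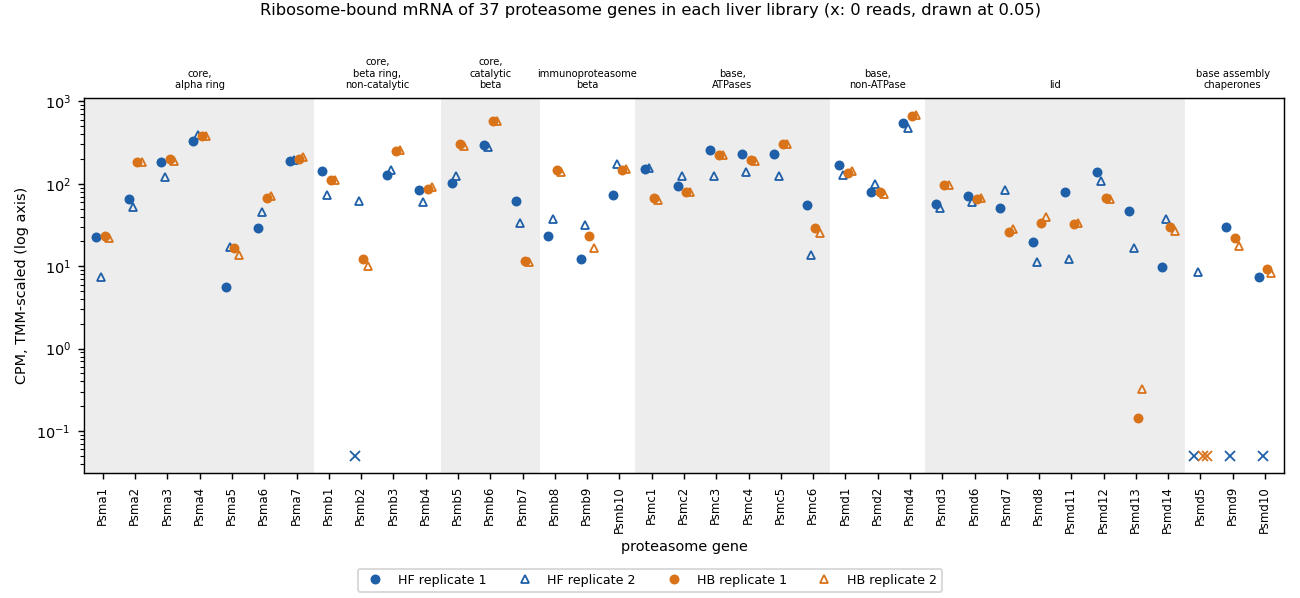
Level of ribosome-bound mRNA (CPM after TMM scaling, log axis) of the 37 tested proteasome genes in each of the 4 RNC libraries; crosses at 0.05 stand for 0 reads. The HF replicates (blue) are often far apart while the HB replicates (orange) nearly coincide, and Psmd13 is close to 0 in both HB libraries.

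Psmb8, the immunoproteasome subunit with the chymotrypsin-like site, rose on ribosomes (chromosome 17, 34198195 to 34201454). It held 23.2 and 37.2 CPM in HF RNC and 145.4 and 138.1 CPM in HB RNC, a log2 change of 2.22 (SE 0.43, adjusted p = 0.0341). Its mRNA groups overlapped. Psma2 held 64.5 and 51.7 CPM in HF and 185.4 and 184.0 CPM in HB, a rise of 1.67 (SE 0.28, adjusted p = 0.0236). The constitutive catalytic subunits Psmb5 (HF 102.4 and 122.7 CPM, HB 299.6 and 289.6 CPM) and Psmb6 (HF 293.5 and 278.7 CPM, HB 582.8 and 577.1 CPM) had changes of 1.38 (adjusted p = 0.0974) and 1.02 (adjusted p = 0.149). Psmb7 held 62.5 and 33.4 CPM in HF RNC and 11.7 and 11.2 CPM in HB RNC (-2.07, adjusted p = 0.0637). Of the 3 catalytic subunits, Psmb7 was the one called in mRNA and the one with both HB RNC values below both HF values. Psmb9 (HF 12.1 and 31.4 CPM, HB 23.0 and 16.8 CPM) and Psmb10 (HF 73.6 and 174.8 CPM, HB 148.9 and 150.6 CPM) had HB values between the HF values.

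Psmd13 was nearly absent from HB ribosomes. It had 307 and 123 reads in the HF RNC libraries and 1 and 3 in the HB ones, against 1736 and 983 reads in HB mRNA. The summed 4 reads gave 0.245 CPM (exact Poisson 95% interval 0.0668 to 0.628 CPM, counting error only), where the HF mean was 31.8 CPM. The HF mean was 130 times the HB value, with a counting interval of 50.7 to 476. The fitted log2 change was -6.96 (SE 1.07, adjusted p = 0.0204). Other genes showed gaps of this kind within a diet. Psmb2 had 0 and 453 reads in HF RNC and 85 and 93 in HB RNC, and Psmd9 had 198 and 0 in HF and 152 and 165 in HB. For Psmd5 the HF libraries gave 0 and 62 reads and the HB libraries 0 and 0. With a floor of 3 reads over the summed HB pair this allows up to 0.184 CPM, and no fold is given. Psmd10 had 48 and 0 in HF and 65 and 77 in HB. In each of these 4 genes 1 of the 2 HF replicates had no read.

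The 3 RNC calls were lost when any one mRNA library was left out, while the fitted changes stayed at 1.52 to 1.83 for Psma2, 1.92 to 2.60 for Psmb8 and -7.71 to -6.04 for Psmd13 over all libraries left out in turn. Without an mRNA library the count was 0, with 6 to 10 genes at an unadjusted p under 0.05 and adjusted p up to 0.108 for Psma2, 0.111 for Psmb8 and 0.108 for Psmd13. In the RNC libraries alone it was 0 as well, with 5 at an unadjusted p under 0.05, while DESeq2 called 11 in the 7 libraries.

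The ratio of RNC to total mRNA was compared within each diet. In HF 6 of 37 genes had a higher ratio and 1 a lower one, where 28.6% of all genes passed (3.92% higher, 24.7% lower). The median log2 ratio was 0.38 against -0.56 over all genes. The highest were Psmd4, the ubiquitin receptor (1.87, adjusted p = 0.0103), and Psma4 (1.60, adjusted p = 0.0103), followed by Psmd12 (1.43), Psmd1 (1.33), Psmc1 (1.25) and Psmc4 (1.23). Psmd8 was lower (-1.60, adjusted p = 0.0258), but with the trend of each library with transcript length removed its value was 0.21. In HB 4 genes had a higher ratio and 3 a lower one, where 28.4% of all genes passed (6.36% higher, 22% lower). At an unadjusted p under 0.05 there were 16, against 39.1%. Psmd4 (2.11) and Psma4 (1.45) were again higher, with Psmb8 (1.63) and Psmb6 (1.29), and Psmd8 (-1.74), Psmb7 (-4.23) and Psmd13 (-8.28) were lower. The median in HB was -0.48, against -0.71 over all genes. With a mean of at least 5 CPM required, these medians were -0.36 and -0.25, so their order turned with the filter on low counts. Psmd4 showed it plainly: 144.8 and 134.4 CPM in HF mRNA on the scale of the 7 libraries, and 551.3 and 470.9 CPM in HF RNC. Above 0 were 22 of 37 genes in HF, against 35.3% of all genes, and 14 of 37 in HB, against 37.2%. All 7 HB calls were lost when any one mRNA library was left out (adjusted p up to 0.197), and those of Psmb8 and Psmd8 also without HB RNC replicate 1. All 7 HF calls were lost without either HF mRNA library (adjusted p up to 0.223), and those of Psmc4 and Psmd8 also without either HB mRNA library.

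The change of this ratio with betaine was tested as an interaction. No proteasome gene had a higher ratio in HB and 3 had a lower one, where 10.5% of all genes passed (6.49% higher, 4.02% lower). They were Psmd13 (-9.23, SE 1.24, adjusted p = 0.0319), Psmb7 (-4.03, SE 0.61, adjusted p = 0.0319) and Psmc1 (-2.11, SE 0.40, adjusted p = 0.0378). Psmc1 held 153.1 and 153.6 CPM in HF RNC and 68.2 and 64.3 CPM in HB RNC, below both, while its mRNA rose. The median change of the ratio was -0.66 against 0.00 over all genes, and 8 of 37 lay above 0 against 50.1%. Each of the 3 calls was lost when any one mRNA library was left out, with adjusted p up to 0.188. Where the trend of each library with transcript length was removed, the medians in HF and HB became 2.09 and 0.93, and over all genes 1.39 and 0.70.

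Deposited m6A peaks lay in the span of 16 and 13 of the 40 genes in the HF libraries and of 18 and 13 in the HB libraries, and in 24 in at least 1 library. Both Psmd10 peaks also lie in the span of Atg4a, and some Psmd1 peaks in that of Htr2b. Which gene these peaks belong to is not known. Of the 37 tested genes 23 had a peak (62.2%, against 82.6% of 12478 tested genes with a RefSeq record), and 6 had one in all 4 libraries (16.2%, against 35.9%). Proteasome genes were shorter, with a median span of 11930 bases against 22390, and the part of length in this was not tested. By role, peaks in at least 1 library were in 6 of 7 standard alpha genes, 2 of 4 non-catalytic and 1 of 3 catalytic beta genes. They were in 4 of 6 base ATPases, 3 of 3 other base subunits, 3 of 3 assembly chaperones and 3 of 8 lid genes. The share to set beside these is the 82.6% over all genes. Of Psmb8, Psmb9 and Psmb10, Psmb8 had a peak, in 1 library. Psma8, which had at most 16 mRNA reads in a library, had 2 peaks in HB replicate 1.

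**Figure D5:**
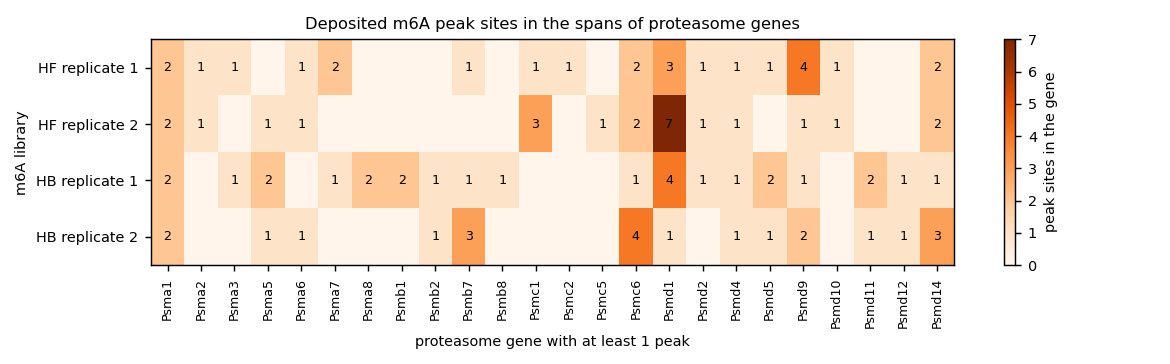
Number of m6A peak sites in the span of each proteasome gene with at least 1 peak (x axis), in each of the 4 m6A libraries (y axis), with darker squares for more sites. Psma1 has 2 sites in each library, while most other columns are filled in some libraries only.

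Peaks that overlapped by at least 1 base were joined into 77 sites, and most were not shared. Of these, 63 (81.8%) were found in 1 of the 4 libraries, a share close to the 83.1% over all genes. The one site in all 4 libraries was in Psma1, at chr7:114266925-114267332 (mm10), 78.4% of the way along the gene from its 5′ end. Its fold enrichment, the authors' value per peak, was 9.45 and 6.69 in HF and 7.47 and 10.9 in HB. A second Psma1 site nearer the 3′ end, chr7:114264722-114265130, was in 3 libraries. Sites in both HF libraries and neither HB library were in Psmc1 (chr12:100112163-100112583, fold 14.03 and 7.20), Psmd14 (chr2:61743209-61743603, fold 9.29 and 19.2) and Psmd4 (chr3:95034948-95035459, fold 7.02 and 7.76). Sites in both HB libraries and neither HF library were in Psmd11 (chr11:80432973-80433210, fold 7.06 and 7.10) and again in Psmd14 (chr2:61790249-61790486, fold 18.2 and 14.6). These 3 and 2 sites are 3.9% and 2.6% of the 77, against 2.36% and 1.76% over all genes. No site in Psmd13 was listed, and the 5 sites of Psmb7 were each in 1 library. Whether a site is exonic or intronic is not given in the sources used here.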

How the data were processed

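Total mRNA and RNC mRNA were given as the authors' deposited read counts per gene, not normalized, and as deposited RPKM, which per the file headers relates the count to the longest transcript. Reads were mapped against RefSeq transcripts, per the series' design text. For m6A the labels' protocols name Trimmomatic 0.36 for trimming and TopHat 2.0.13 for alignment, whereas HISAT2 2.0.4, MACS2 2.1.0.20151222 and mm10 are listed in the submitters' processing notes. Peaks were deposited per library, per the file headers, with a pileup signal, a −log10 p-value and −log10 q-value, and a fold enrichment (ratio). The header cells of the p and q columns were damaged and these columns were read by their order. Peaks were joined with gene spans of GRCm38.p6.

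Counts were tested with edgeR 4.0.16 (TMM, filterByExpr, glmQLFit, R 4.3.3): once on the 4 mRNA libraries (12817 genes, residual df 2) and once on 7 libraries with the HB RNC pair summed (12634 genes, residual df 3). The HB RNC group then has 1 value, assumed to vary like the others. The common dispersion was 0.0644 and 0.464. The filter for the 7 libraries was run on the unsummed libraries, a choice made after both versions had been seen. DESeq2 1.42.0 and limma 3.58.1 (on log2(RPKM + 0.1) and log2(RPKM + 1)) were alternatives. Scripts were tested on simulated data.

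The members, gene lists, motifs and naming rule were chosen with earlier results of these data known. Per-library values are given for up to 12 called mRNAs with the largest change, Psmb5 to Psmb10, genes called in RNC or in the ratio change, the 2 highest and 2 lowest by RPKM, genes with 0 reads in an RNC library, and diet-specific m6A sites; other values were chosen after they were seen. Same replicate numbers did not pair the libraries (correlation of their deviations -0.114 to 0.0649). The m6A inputs were not analysed here, and 1 gene list is not reported here.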

Additional observations from a re-analysis of the deposited data

Results flagged for a closer look

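In 3 genes the change with diet differed between total mRNA and RNC mRNA by the test of the difference itself (edgeR, 7 libraries). The log2 change of the RNC to mRNA ratio was -4.03 for Psmb7, -2.11 for Psmc1 and -9.23 for Psmd13. In each of them the mRNA rose in HB and both HB RNC values lay below both HF RNC values. The Psmd13 value rests on 4 HB RNC reads. These 3 of 37 genes are 8.11%, against 10.5% of all genes, and all 3 calls were lost when any one mRNA library was left out (adjusted p up to 0.188).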

How the results depend on the processing

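The 20 mRNA calls became 11 with total counts, 12 and 13 with limma on log2(RPKM + 0.1) and log2(RPKM + 1), 0 in the 7-library fit and 5 to 21 with 1 library left out. Removing the length trend gave 15 mRNA calls (19.2% of all genes) and a median log2 change of 0.64, against 0.02 over all genes. With the replicate block the count was 15 (22.9% of all genes). A crossed pairing was added because same-numbered HF and HB mRNA libraries deviated in opposite ways (r = -0.114), and it gave 21 (26.6%). Without the block but with all 8 libraries unsummed, RNC, HB ratio and ratio change counts were 12, 18 and 8, and with the replicate block 10, 16 and 7. Both fits take the HB RNC pair as 2 samples, though it differed by little more than sampling noise, and that can raise the counts. DESeq2 gave 11, 16 and 8. RNC libraries alone gave 0. Leaving out 1 library gave ranges of 0 to 15 for RNC, 0 to 17 for the HF ratio, 0 to 23 for the HB ratio and 0 to 15 for the ratio change; the highest came without HF RNC replicate 1, a fit whose spread is that of mRNA libraries only. Removing the length trend gave 28 (HF ratio), 16 (HB ratio) and 6 (ratio change), turned the median RNC change to -0.45 and the median HB ratio to 0.93, and turned the HF ratio of Psmd8 to 0.21. These RNC and ratio counts are given without the share of all genes called in the same fit. They do not show a shift particular to the proteasome genes. The cause of these shifts was not tested. A filter on the summed libraries left the counts of 3, 7, 7 and 3 at 3, 8, 8 and 3.

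Members that were not called in mRNA also changed sign. With the length trend removed these were Psma2 (-0.043), Psma4 (-0.16), Psmb6 (-0.30), Psmb8 (-0.075), Psmc5 (-0.31) and Psmd4 (-0.18), and with total counts Psma4 (-0.088), Psmb6 (-0.20), Psmb8 (-0.013), Psmc5 (-0.25) and Psmd4 (-0.14). With limma at a pseudocount of 0.1, Psma4 was -0.058, Psmb6 -0.20, Psmc5 -0.24, Psmc6 -0.0038 and Psmd4 -0.13; at 1 they were -0.058, -0.20, -0.24, -0.0027 and -0.13. With 1 mRNA library left out, Psmb10 ranged from -0.47 to 0.20, Psmb6 from -0.26 to 0.39, Psmc5 from -0.22 to 0.27, Psmc6 from -0.020 to 0.54 and Psmd4 from -0.11 to 0.38; the signs turned without HB replicate 1 (Psmb10, Psmc6), HF replicate 2 (Psmb10, Psmc5) or HB replicate 2 (Psmb6, Psmc5, Psmd4). In RNC, Psmb10 was -0.21 with the length trend removed and ranged from -0.22 (without HF replicate 1) to 1.02 with 1 library left out, and Psmb9 ranged from -0.70 to 0.69, with its sign turned without HF replicate 2 or HB replicate 2. Genes with an m6A peak numbered 21 to 24 with 1 library left out and 18 at a fold of at least 10, where 0 sites were in all 4 libraries. Depth was lowest in the RNC libraries.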
